A study of Mus musculus with 6 samples.

Results

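The genes described here are 10 markers of macrophage identity and activation, taken by symbol from an expression table of 35434 mouse genes. Its unit is FPKM, the fragments of a gene scaled to its length and to the depth of the library. All 10 were in the table. They are Adgre1, Csf1r, Cd68 and Lyz2, which mark the lineage, Mrc1, Cd163 and Mertk, which are typical of resident macrophages, and Chil3, Arg1 and Retnla, which are typical of alternative activation. The RNA came from the large intestine of mice with inflammatory bowel disease (IBD) that had received regulatory T cells (Tregs). These were Ctrl-Tregs or Lenv-Tregs, the second exposed to lenvatinib, an inhibitor of several receptor tyrosine kinases. The 6 libraries are titled int 3 and int 2, with 3 in each group. The transfer behind each number is not stated in the labels, which also give no strain, age, colitis model or time, so every difference is int 3 minus int 2 and no treatment is attached to it. Whether each library is a mouse of its own is not stated, and p-values then measure only the spread between these libraries, which may be technical.

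Macrophages of the gut wall are mostly renewed from blood monocytes, which lose Ly6C and gain scavenger receptors as they settle under the epithelium. Csf1r, the receptor for the growth factors CSF1 and IL-34, keeps them alive, and resident cells clear dying cells through Mertk and bind glycoproteins and haemoglobin through Mrc1 and Cd163. In mice, IL-4 and IL-13 acting through STAT6 raise Chil3, Arg1 and Retnla, while interferon gamma and microbial products raise Nos2 and inflammatory cytokines.

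Depth was even, at 34.0 to 35.1 M fragments per int 3 library and 34.2 to 34.4 M per int 2 library, recovered from the steps of the FPKM values. The int 3 libraries lay farther apart: over the tested genes the log2 difference between a pair of libraries had an SD of 0.271 to 0.513 in int 3 and of 0.110 to 0.115 in int 2. Int 3-2 and int 3-3 lay farthest apart, with int 3-1 between them for 7 of the 10 genes. These were whole tissue samples, so fewer cells of a type and less RNA per cell cannot be told apart. Markers of other cells moved with the groups. Summed over 8 B cell markers the FPKM was 4.96 to 41.2 in int 3 and 145 to 151 in int 2, and over 5 general leukocyte markers it was 65.3 to 143 in int 3 and 221 to 226 in int 2. Over 8 adipocyte markers it was 90.5 to 277 in int 3 and 56.8 to 59.1 in int 2. Of the 5 adipocyte markers tested only Fabp4 rose, and Adipoq, Cfd, Retn and Car3 did not pass. In int 3-3 Fabp4 gave 70.4 of the 90.5 FPKM, against 40.9 to 43.7 FPKM in int 2. Cfd and Retn were also above int 2 in that library, while Adipoq lay within its int 2 range and Car3 below it. The part of these other cells in the results below was not tested.

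Of the 10 members, 9 passed a filter of FPKM 1 or more in at least 3 libraries and were tested. The test was limma's moderated linear model on log2(FPKM + 1), with Benjamini-Hochberg adjustment over all 12525 tested genes and a threshold of 0.05. Adgre1, Cd68 and Chil3 rose in int 3, Lyz2 and Retnla fell, 4 did not pass, and Arg1 was not tested. Of the 1921 genes called in all, 56.3% were higher in int 3, and 67.7% were when values were rescaled to TPM. The members make 5 called of 9 tested (55.6%), against 15.3% of all tested genes (8.64% higher and 6.70% lower). Chil3 passed the filter only through its int 3 values and so had to differ, and the count is therefore no support in itself. The int 3 and int 2 values did not overlap for 7 of the 9, which held for 40.4% of all tested genes. Both the lineage markers and the markers of alternative activation held a rise and a fall.

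**Figure D1:**
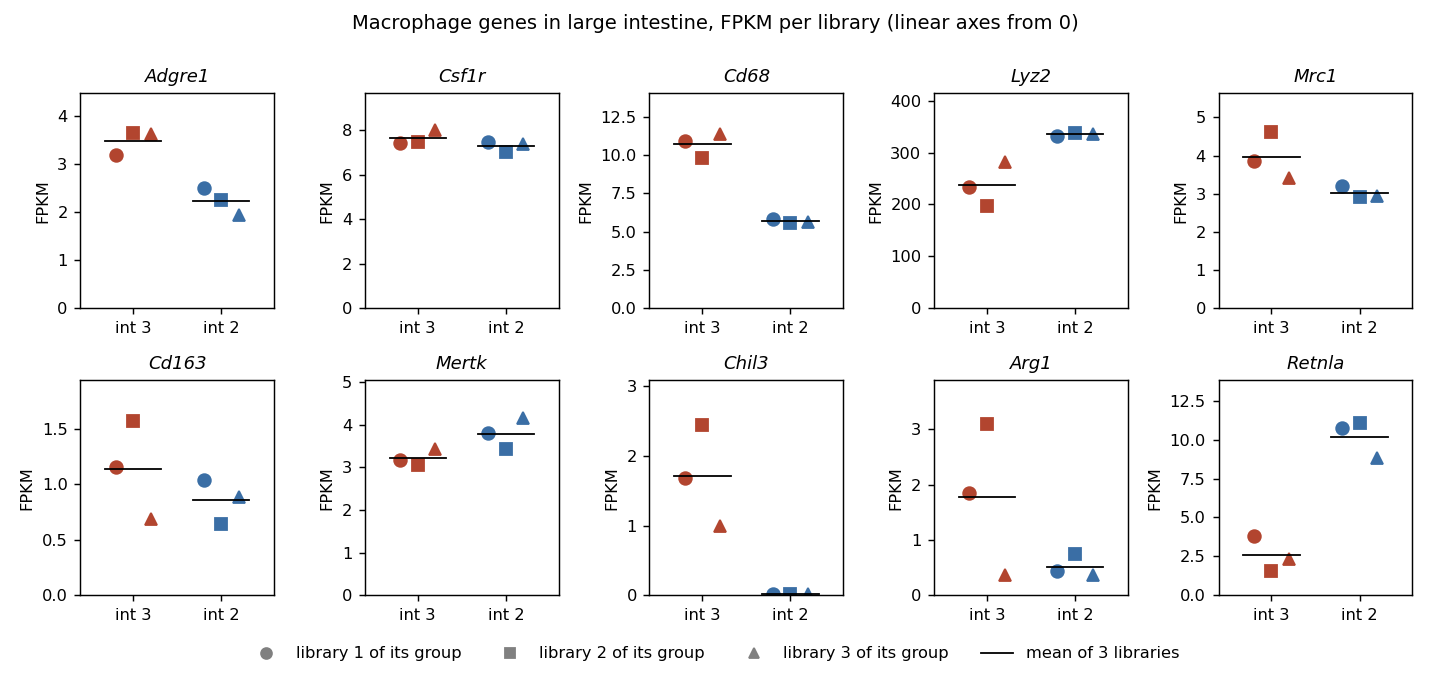
FPKM of the 10 genes in each library, with int 3 in red on the left and int 2 in blue on the right of each panel, the libraries told apart by symbol and the group mean as a bar. Cd68 sits at 9.81 to 11.4 FPKM in int 3, above all int 2 libraries, and Retnla at 1.58 to 3.79, below all of them, while Csf1r overlaps between the groups.

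Csf1r, the lineage's growth factor receptor, differed little. It had 7.45, 7.48 and 8.01 FPKM in libraries int 3-1, int 3-2 and int 3-3, against 7.47, 7.03 and 7.37 FPKM in int 2-1, int 2-2 and int 2-3. The groups overlapped, and the log2 change was 0.06 with a 95% interval of -0.08 to 0.20 (limma adjusted p = 0.5). This does not show that the levels were equal. The spread of Csf1r fragments between the libraries was near that of sampling alone, with a chi-square per degree of freedom of 1.74 in int 3 and 0.986 in int 2, where sampling gives about 1.

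Cd68, a lysosomal glycoprotein of phagocytes, was higher in all int 3 libraries. It had 10.9, 9.81 and 11.4 FPKM in libraries int 3-1, int 3-2 and int 3-3, against 5.80, 5.54 and 5.66 FPKM in int 2-1, int 2-2 and int 2-3. No int 3 library came near the int 2 range, and the means were 10.7 ± 0.825 FPKM in int 3 and 5.67 ± 0.131 FPKM in int 2 (SD, n = 3 libraries each). Cd68 rose by 0.81 on the log2 scale (SE 0.07, limma adjusted p = 0.00139), and it passed under all alternatives tried (adjusted p = 0.000333 to 0.0157). Relative to Csf1r in the same library, the Cd68 level per length was 1.40 ± 0.0807 in int 3 and 0.778 ± 0.0106 in int 2.

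Adgre1 encodes F4/80, a surface protein used to identify mouse macrophages. It had 3.18, 3.65 and 3.64 FPKM in int 3, against 2.50, 2.25 and 1.94 FPKM in int 2, in the order of the library numbers. The lowest int 3 library lay above the highest int 2 library, and the ratio to Csf1r was 0.456 ± 0.0304 in int 3 and 0.306 ± 0.0379 in int 2. Adgre1 rose by 0.48 (SE 0.09, limma adjusted p = 0.0193). That call did not hold without int 3-1, int 2-2 or int 2-3 (adjusted p = 0.0568, 0.0878 and 0.0805), nor with 1 weight per group for unequal spread (0.0594).

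Lyz2 encodes lysozyme M, an enzyme that cleaves bacterial cell walls and is abundant in macrophages, monocytes and neutrophils. It had 234, 197 and 282 FPKM in libraries int 3-1, int 3-2 and int 3-3, against 331, 338 and 335 FPKM in int 2-1, int 2-2 and int 2-3. All int 3 libraries were below all int 2 libraries, and their spread was far wider (17.8% of the mean, against 1.05% in int 2). Lyz2 fell by 0.51 on the log2 scale (SE 0.13, limma adjusted p = 0.0438). The call was lost without int 3-1, int 2-1, int 2-2 or int 2-3 (adjusted p = 0.148, 0.145, 0.153 and 0.147). It was also lost with no filter (0.0868) and with median-of-ratios scaling (0.0685), while the direction held throughout.

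Lyz2 stood far above every other member, at 31.0 ± 4.43 times the Csf1r level per length in int 3 and 46.0 ± 1.95 times in int 2. Its neighbour gene Lyz1, which encodes the lysozyme of Paneth cells and similar secretory cells, fell too. Lyz1 had 3.15, 1.81 and 4.08 FPKM in int 3, against 21.2, 22.9 and 22.9 FPKM in int 2 (log2 change -2.58, SE 0.21, limma adjusted p = 0.00113). In both genes int 3-2 was the lowest and int 3-3 the highest of the int 3 libraries. The GENCODE vM21 transcripts of Lyz2 and Lyz1 are identical at 96.0% of 1262 aligned bases, with an identical run of up to 118 bases, and how the authors assigned fragments that match both is not given in the sources used here. The split of fragments between these genes is therefore uncertain. The windows of 250 bases before the start of each gene are shown because they too are alike (80.6% of 248 aligned bases). They come from RefSeq (GRCm38.p6, not the build of the deposited values), as chr10:117282273-117282522 on the minus strand for Lyz2 and chr10:117292869-117293118 on the minus strand for Lyz1, 5′ to 3′, with AGGAAGT or its reverse complement in capitals.
Lyz2: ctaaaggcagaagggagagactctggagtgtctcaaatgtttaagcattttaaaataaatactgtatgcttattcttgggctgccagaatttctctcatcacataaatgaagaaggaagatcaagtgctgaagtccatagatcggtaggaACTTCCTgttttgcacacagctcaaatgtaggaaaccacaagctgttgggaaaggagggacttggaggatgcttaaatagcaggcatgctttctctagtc
Lyz1: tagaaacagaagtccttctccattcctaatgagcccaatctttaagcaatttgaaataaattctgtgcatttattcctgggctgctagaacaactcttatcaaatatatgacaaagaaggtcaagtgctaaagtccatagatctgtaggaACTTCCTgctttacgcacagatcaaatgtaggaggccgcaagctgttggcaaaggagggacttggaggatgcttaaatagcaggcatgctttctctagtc
AGGAAGT is a core that PU.1, a factor of myeloid cells, and other ETS factors bind, and it was found once in each window at the same place, 100 bases before the start. It occurs on either strand in 7.69% of 32851 such windows. A match is a description of the letters and not a site of binding.

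**Figure D2:**
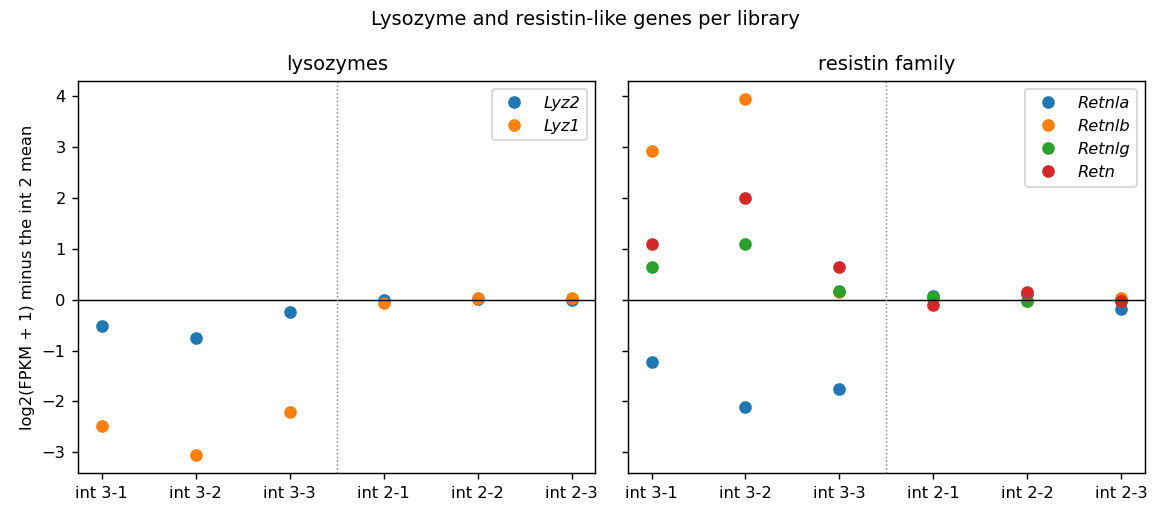
Log2(FPKM + 1) minus the int 2 mean in each library, int 3 on the left, for the lysozyme genes and for the resistin family. Lyz1 lies below Lyz2 in each int 3 library, and Retnla lies below 0 in each of them while Retnlb, Retn and Retnlg lie above it.

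Among the markers of resident macrophages, 0 of 3 passed the limma test in either direction, and the mean of Mertk was lower in int 3 and those of Mrc1 and Cd163 were higher. At an unadjusted p under 0.05 the count was 1 (Mrc1), and voom on whole fragments called 0 of 3. Mrc1, the mannose receptor, had 3.85, 4.61 and 3.42 FPKM in libraries int 3-1, int 3-2 and int 3-3, against 3.21, 2.91 and 2.94 FPKM in int 2-1, int 2-2 and int 2-3. The groups did not overlap, but int 3-3 lay close to the int 2 range. The log2 change was 0.30 (95% interval 0.05 to 0.54, limma adjusted p = 0.1), and without int 3-3 the adjusted p was 0.0186 (log2 change 0.38). Cd163, the receptor that takes up haemoglobin bound to haptoglobin, had 1.16, 1.57 and 0.690 FPKM in int 3, against 1.04, 0.644 and 0.883 FPKM in int 2, in the order of the library numbers. The groups overlapped, and int 3-3 lay within the int 2 range (log2 change 0.19, 95% interval -0.23 to 0.60, limma adjusted p = 0.48). Mertk, a receptor kinase for the uptake of apoptotic cells, had 3.16, 3.06 and 3.43 FPKM in int 3, against 3.80, 3.43 and 4.15 FPKM in int 2. The groups met but did not overlap, as int 3-3 and int 2-2 differed by less than 0.01 FPKM. The log2 change was -0.18 (95% interval -0.38 to 0.01, limma adjusted p = 0.175), and relative to Csf1r Mertk stood at 0.421 ± 0.00981 in int 3 and 0.520 ± 0.0386 in int 2.

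The 3 markers of alternative activation went apart. Chil3, also called Ym1, is a chitinase-like secreted protein of macrophages and neutrophils. It had 1.69, 2.45 and 1.00 FPKM in int 3-1, int 3-2 and int 3-3, from 87, 126 and 53 fragments. In int 2-1, int 2-2 and int 2-3 it had 0.0193, 0.0192 and 0.0194 FPKM, which is 1 fragment in each. Chil3 was thus close to undetected in int 2 and present in each int 3 library, with the summed fragments 88.4-fold apart per unit of depth (95% exact interval 29.9 to 431, which covers counting error only). It rose by 1.38 on the log2(FPKM + 1) scale (SE 0.19, limma adjusted p = 0.00723), a scale that understates changes from so low a level, and the adjusted p was 0.000703 to 0.0439 over the alternatives. Its paralog Chil4, with 94.4% identical transcript bases, was listed at 0 in all 6 libraries, and the split of fragments that match both is uncertain here too.

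Chil3 is also a product of neutrophils, and some neutrophil transcripts moved in parallel with it while others did not. S100a8 had 5.76, 10.5 and 3.86 FPKM in libraries int 3-1, int 3-2 and int 3-3, against 0, 0 and 0.224 FPKM in int 2-1, int 2-2 and int 2-3. As for Chil3, int 3-2 was the highest and int 3-3 the lowest of the int 3 libraries. Of 14 neutrophil markers 11 were too low to test, 2 rose (S100a8 and S100a9) and Ly6g did not pass, and 1 of the 3 rose without int 3-1 or any 1 int 2 library. S100a8 and S100a9 passed the filter only through int 3, like Chil3, and so had to differ. Ly6g, a surface marker of neutrophils, had another order, with 106, 51.8 and 155 FPKM in libraries int 3-1, int 3-2 and int 3-3, against 38.9, 39.7 and 39.3 FPKM in int 2-1, int 2-2 and int 2-3. The granule genes Mpo, Elane and Ngp, which mark immature neutrophils, were at most 0.0462 FPKM in every library. The summed FPKM of the list was 79.0 to 164 in int 3 and 40.7 to 41.2 in int 2, most of it from Ly6g. The sum therefore follows Ly6g, which was high in int 2 where S100a8 was near 0, and not the list as a whole. The part of neutrophils in the rise of Chil3 was not tested.

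Arg1, arginase 1, which takes arginine from nitric oxide synthesis, had 1.85, 3.10 and 0.367 FPKM in libraries int 3-1, int 3-2 and int 3-3, against 0.435, 0.747 and 0.357 FPKM in int 2-1, int 2-2 and int 2-3. Int 3-1 and int 3-2 were above all int 2 libraries, and int 3-3 was at the low end of the int 2 range. The groups overlapped, only 2 libraries reached 1 FPKM, and Arg1 stayed below the filter. Without a filter it had a log2 change of 0.74 (limma adjusted p = 0.359). The fragments behind these values were 93, 156 and 19 in int 3 and 22, 38 and 18 in int 2. Adipoq, an adipocyte hormone, had the same order within int 3 only, with 5.88, 11.5 and 1.34 FPKM in libraries int 3-1, int 3-2 and int 3-3. In int 2-1, int 2-2 and int 2-3 it had 1.35, 0.990 and 1.26 FPKM, lowest in int 2-2, where Arg1 was highest. The part of adipocytes in the Arg1 values was not tested.

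Retnla encodes a secreted resistin-like protein, also called FIZZ1 or RELM alpha, of alternatively activated macrophages. It had 3.79, 1.58 and 2.32 FPKM in libraries int 3-1, int 3-2 and int 3-3, against 10.7, 11.1 and 8.82 FPKM in int 2-1, int 2-2 and int 2-3. The highest int 3 library was below the lowest int 2 library, and the means were 2.56 ± 1.13 FPKM in int 3 and 10.2 ± 1.21 FPKM in int 2 (SD, n = 3 libraries each). The 143 fragments in int 3 and 568 in int 2 gave a ratio of 0.251 (95% exact interval 0.207 to 0.302, counting error only). Retnla fell by 1.69 on the log2 scale (SE 0.23, limma adjusted p = 0.00615), and it passed under all alternatives tried (adjusted p = 0.00222 to 0.0411). Relative to Csf1r it stood at 0.337 ± 0.155 in int 3 and 1.40 ± 0.191 in int 2, and the order of levels differed between the groups. Retnla was second to Lyz2 among the members in int 2, and below Cd68, Csf1r, Mrc1, Adgre1 and Mertk by its mean in int 3.

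Other tested members of the resistin family had higher means in int 3 and did not pass in the main fit. Retnlb, a goblet cell product, had 379, 771 and 54.9 FPKM in libraries int 3-1, int 3-2 and int 3-3, against 49.6, 48.0 and 50.3 FPKM in int 2 (log2 change 2.34, limma adjusted p = 0.135). Retn, resistin, an adipocyte hormone in mice, had 2.48, 5.53 and 1.55 FPKM in int 3, against 0.521, 0.812 and 0.614 FPKM in int 2 (log2 change 1.23, limma adjusted p = 0.0532). For both the int 3 libraries were above the int 2 libraries, with int 3-2 the highest. Without int 3-3 Retnlb and Retn passed (adjusted p = 0.000716 and 0.00703), and Retn also without int 3-2 (0.0118). Retnlg, a product of neutrophils and bone marrow, was too low to test, at 0.578, 1.16 and 0.141 FPKM in int 3 and 0.0480, 0 and 0 FPKM in int 2. The transcripts of these genes are less alike than those of the lysozymes, with 84.5% of aligned bases identical between Retnla and Retnlg and 74.8% between Retnla and Retnlb.

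Eosinophil markers, which were all below the filter, also had lower sums in int 3 (0.342 to 0.614 FPKM) than in int 2 (0.945 to 1.18 FPKM). The list was split: Siglecf and Prg2 had lower means in int 3 (0.211 and 0.0520 FPKM) than in int 2 (0.565 and 0.279 FPKM). Il5ra, Ccr3 and Epx had higher means in int 3, and Ccr3 and Epx were at most 0.0168 FPKM in every library. Il4 and Il13, the cytokines that induce Retnla, Chil3 and Arg1, were listed at 0 in all int 3 libraries. In int 2-1, int 2-2 and int 2-3 Il4 had 0.0996, 0 and 0.0999 FPKM and Il13 had 0, 0.144 and 0.0485 FPKM. These are too few fragments for a comparison. The part of eosinophils and of these cytokines in the fall of Retnla was not tested.

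The 250 bases before the start of Retnla and Chil3 are shown because these genes moved in opposite directions. They come from RefSeq (GRCm38.p6), as chr16:48842359-48842608 on the plus strand for Retnla and chr3:106167565-106167814 on the minus strand for Chil3, 5′ to 3′. Capitals mark matches on either strand to TTCNNNNGAA, the spacing that STAT6 prefers, to TTCNNNGAA, a spacing bound by other STAT proteins, and to AGGAAGT.
Retnla: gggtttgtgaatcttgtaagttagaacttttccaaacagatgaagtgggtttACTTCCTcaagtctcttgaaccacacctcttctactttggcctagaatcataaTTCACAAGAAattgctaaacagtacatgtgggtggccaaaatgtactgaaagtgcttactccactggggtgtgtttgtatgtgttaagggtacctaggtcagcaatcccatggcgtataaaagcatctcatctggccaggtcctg
Chil3: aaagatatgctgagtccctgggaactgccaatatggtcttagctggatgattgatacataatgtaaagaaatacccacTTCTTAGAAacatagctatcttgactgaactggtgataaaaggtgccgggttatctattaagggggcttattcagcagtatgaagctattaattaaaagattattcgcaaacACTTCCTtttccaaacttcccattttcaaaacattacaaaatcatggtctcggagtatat
Retnla held 1 TTCNNNNGAA, starting 145 bases before the start, and 1 AGGAAGT. Chil3 held 1 TTCNNNGAA, starting 172 bases before the start, and 1 AGGAAGT. None of these matches overlap. TTCNNNNGAA occurs in 5.85% of 32851 windows of this length and TTCNNNGAA in 7.02%. Of the 7 members with a window in the RefSeq table (Cd68, Lyz2, Mrc1, Cd163, Mertk, Chil3 and Retnla), 1 held TTCNNNNGAA, 1 held TTCNNNGAA and 4 held AGGAAGT, the other two being Lyz2 and Mrc1. No match says only that these letters are not in this window.

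**Figure D3:**
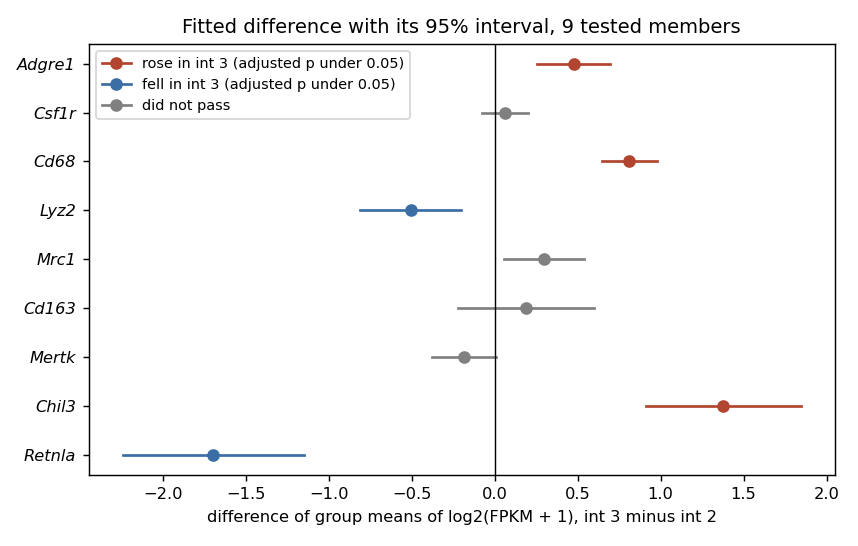
Fitted difference int 3 minus int 2 on the log2(FPKM + 1) scale for the 9 tested members, each point with its 95% interval from the fit across all genes. Chil3 at 1.38 and Retnla at -1.69 lie on opposite sides, with Csf1r at 0.06 near 0.

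Within int 3 the members fell into several orders. Chil3, Arg1, Mrc1 and Cd163 were highest in int 3-2 and lowest in int 3-3. Lyz2, Cd68 and Mertk had the opposite order, lowest in int 3-2 and highest in int 3-3, and Retnla was lowest in int 3-2 and highest in int 3-1. Relative to the mean, the SD between int 3 libraries was 77.3% for Arg1, 44.0% for Retnla, 42.4% for Chil3, 38.7% for Cd163, 17.8% for Lyz2 and 15.2% for Mrc1. Against fragment sampling, the chi-square per degree of freedom in int 3 was 276 for Lyz2, 54.5 for Arg1, 26.7 for Cd163, 16.7 for Mrc1, 16.1 for Chil3 and 9.16 for Retnla. This value grows with the number of fragments, which is by far the highest for Lyz2, so it does not rank the genes by spread. In int 2 that value was 1.34 for Lyz2, 4.21 for Arg1, 7.27 for Cd163, 1.65 for Mrc1, 2.65 for Retnla and 8.63 for Mertk. Cell markers differed along with this order: the adipocyte sum was 175, 277 and 90.5 FPKM in int 3-1, int 3-2 and int 3-3, and the B cell sum was 25.3, 4.96 and 41.2 FPKM. Their part in the order of the members was not tested.

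**Figure D4:**
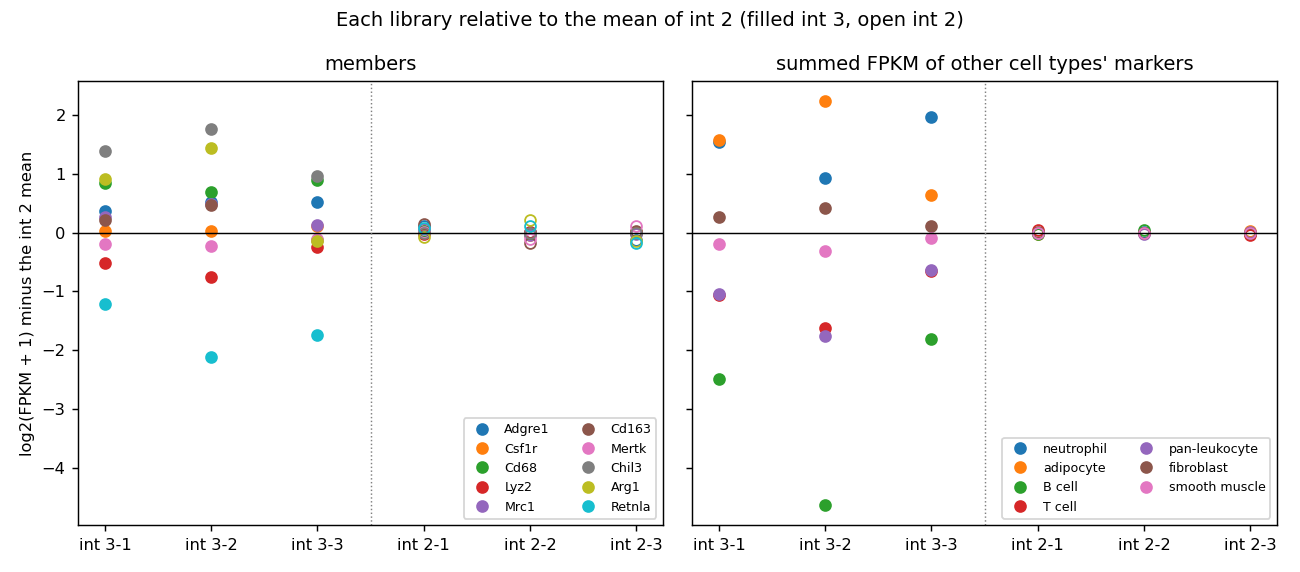
Log2(FPKM + 1) of each library minus the int 2 mean, for the members on the left and for the summed FPKM of marker lists of other cells on the right, with int 3 libraries filled and int 2 libraries open. In int 3-3 Arg1 lies at -0.14 and Mrc1 at 0.14, close to the int 2 mean, while Cd68 lies at 0.90 and Retnla at -1.75, and the B cell sum is lowest in int 3-2.

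The pattern of a member over the 6 libraries was set against 11943 other named tested genes, by the Euclidean distance between log2 differences from the int 2 mean. Predicted or unnamed genes and segments of immunoglobulins and T cell receptors were left out of this search. Cd68 lay nearest to Stat3 (distance 0.055), Nr1d2 (0.088) and Nr1h4 (0.118). Adgre1 lay nearest to Parp3, Ggt7 and Slc11a2 (0.138 to 0.160), and Chil3 to Ddah1, Gfap and Ifit2 (0.130 to 0.154). Lyz2 lay nearest to Cdkn2b, Tmem171 and Vdr (0.037 to 0.078). Retnla had no near match among the genes searched: its nearest genes were the T cell gene Cd2, Arhgap45 and Nxpe2, at 0.566 to 0.592. The number of genes within 0.5 was 1087 for Adgre1, 751 for Lyz2, 185 for Cd68, 51 for Chil3 and 0 for Retnla. For the members that did not pass it was 7434 for Csf1r (nearest Wbp2, Capza1 and Atp6v0d1), 5011 for Mertk (Vps72, Bbc3 and Sema4b), 4692 for Mrc1 (Bcl6, Galnt2 and Gorasp2) and 4147 for Cd163 (Igsf23, Cdk2 and Vstm2l). The distance is not scaled to the size or spread of a change, so these numbers do not show how particular a member's pattern is.

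Beyond the members, 7 lists of genes tied to macrophage states held 134 genes in the table, of which 105 were tested. Of these 40 rose (38.1%) and 6 fell (5.71%), where 8.64% of all tested genes rose and 6.70% fell. The median log2 change was 0.21 over these genes and 0.03 over all tested genes. The lists were chosen with earlier results of these data known, so neither these shares nor these medians are support in themselves. Of the 40 that rose, 8 passed the filter only through int 3 (Ccr2, Clec10a, Fcgr1, Hp, Nos2, Tnf, Trem2 and Vcan), and 2 of the 6 that fell passed only through int 2, Irf4 among them. The count of genes that changed was 46, and it was 29 without int 3-1, 30 without int 2-1, and 29 without int 2-2 or int 2-3. Without int 3-3, 50 rose and 16 fell.

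Of 15 tested genes of monocytes and inflammatory macrophages 9 rose, 2 fell and 4 did not pass (median log2 change 0.76). Nos2, the inducible nitric oxide synthase that competes with Arg1 for arginine, had 6.06, 5.69 and 4.52 FPKM in libraries int 3-1, int 3-2 and int 3-3, against 0.156, 0.0541 and 0.0818 FPKM in int 2-1, int 2-2 and int 2-3. All int 3 libraries were far above all int 2 libraries, unlike Arg1, whose groups overlapped (log2 change 2.54, limma adjusted p = 0.000154). Fcgr4, an activating Fc receptor of monocytes and macrophages, had 7.22, 7.99 and 6.53 FPKM in int 3, against 1.05, 0.836 and 0.960 FPKM in int 2 (2.08, limma adjusted p = 0.000154). Il1b rose by 1.29, and Ccr2, the chemokine receptor by which monocytes leave the marrow, by 0.97 (limma adjusted p = 0.00134 and 0.0023). Ly6c2, the Ly6C antigen, which some T cells carry besides monocytes, fell by 1.01 (limma adjusted p = 0.00654). T cell markers had a summed FPKM of 7.95 to 16.6 in int 3 and 25.7 to 27.5 in int 2, and their part in this fall was not tested.

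Of 18 tested genes of resident macrophages 6 rose, 1 fell and 11 did not pass (median 0.30). The complement genes C1qa, C1qb and C1qc rose together. C1qa had 57.8, 53.3 and 59.4 FPKM in int 3, against 33.5, 33.5 and 33.7 FPKM in int 2 (log2 change 0.74, limma adjusted p = 0.000885). Ms4a7, a membrane protein of macrophages, rose by 1.04 and C1qc by 0.47 (limma adjusted p = 0.00178 and 0.00359). Lyve1, a hyaluronan receptor of lymphatic vessels and of some resident macrophages, had 6.002, 5.39 and 6.17 FPKM in int 3, against 10.6, 10.6 and 10.8 FPKM in int 2. It was lower in all int 3 libraries (-0.77, limma adjusted p = 0.00118). Without int 3-2 or int 3-3, 2 genes of the list fell.

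Of 19 tested lysosome and phagocyte genes 8 rose, 1 fell and 10 did not pass (median 0.18). Lgmn, the lysosomal protease legumain, had 59.1, 61.0 and 61.1 FPKM in int 3, against 29.6, 30.0 and 29.7 FPKM in int 2 (log2 change 1.00, limma adjusted p = 0.000154). Fcer1g, an Fc receptor signalling chain, and Aif1, a calcium-binding protein of macrophages, rose by 1.18 and 0.84 (limma adjusted p = 0.00097 and 0.0022). Laptm5, a lysosomal protein of most leukocytes, fell by 0.56 (limma adjusted p = 0.0246). Without int 3-1, int 2-1, int 2-2 or int 2-3 Laptm5 did not pass, with adjusted p up to 0.104, and without int 3-3, 2 genes of the list fell.

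Of 13 tested genes of alternative activation and type 2 responses 4 rose, 0 fell and 9 did not pass (median 0.21). At an unadjusted p under 0.05, 1 fell, and voom called 0 lower. Ccl8, a chemokine of tissue macrophages, had 37.4, 43.7 and 36.4 FPKM in int 3, against 2.17, 2.78 and 2.92 FPKM in int 2 (log2 change 3.47, limma adjusted p = 8.17e-05). Il13ra1, a chain of the IL-13 receptor, rose by 0.43 and Clec10a, a lectin of macrophages and dendritic cells, by 0.76 (limma adjusted p = 0.00402 and 0.00456). Mgl2, a lectin related to Clec10a, had a log2 change of -0.27 (limma adjusted p = 0.121). The 4 genes that rose were 3 without int 3-1 or any 1 int 2 library, and 7 without int 3-3, when 2 fell. Without int 3-2, 5 rose and 1 fell.

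The ligands of Csf1r did not pass. Csf1 had 5.32, 5.21 and 5.09 FPKM in int 3, against 5.16, 4.66 and 4.39 FPKM in int 2 (log2 change 0.12, limma adjusted p = 0.295). Il34, the other ligand of Csf1r, had 5.32, 3.84 and 7.38 FPKM in int 3, against 3.34, 3.37 and 3.18 FPKM in int 2 (0.56, limma adjusted p = 0.1), and passed without int 3-2 (adjusted p = 0.00774). Csf2, another myeloid growth factor, was at most 0.0457 FPKM in every library. Of 19 tested genes of this list 4 rose and 1 fell (median 0.12). Cebpb, a transcription factor of myeloid cells, rose by 1.10 (limma adjusted p = 0.00309), Tgfbr2, a receptor for TGF beta, by 0.44 (0.0108) and Irf8, a factor of monocytes, dendritic cells and B cells, by 0.30 (0.0442). Irf4, a factor of plasma cells, B cells and alternatively activated macrophages, fell by 0.99 (0.00723). Without int 3-1 or any 1 int 2 library Tgfbr2 and Irf8 did not pass (adjusted p up to 0.065 and 0.166), and 1 gene of the list then rose. Without int 3-3, 6 rose and 4 fell.

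Genes for the uptake of apoptotic cells, to which Mertk belongs, rose in 5 of 12 tested cases and fell in 1 (median 0.14). Of the kinases related to Mertk, Axl rose by 0.24 (limma adjusted p = 0.0357) and Tyro3 had a log2 change of -0.10 (0.347). Itgav, an integrin chain, and Abca1, a cholesterol exporter, rose by 0.42 and 0.52 (limma adjusted p = 0.0302 and 0.0407), and Mfge8, a bridge between dying cells and phagocytes, fell by 0.86 (0.0338). Without int 3-1, int 2-1, int 2-2 or int 2-3 none of the 12 genes passed in limma's test, with 6 at an unadjusted p under 0.05. Without int 3-3, 6 rose and 3 fell.

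In arginine and haem handling 5 of 11 tested genes rose and 0 fell (median 0.29). At an unadjusted p under 0.05, 0 fell, and voom called 0 lower. Besides Nos2 these were Hmox1, haem oxygenase 1, with 6.53, 8.95 and 5.03 FPKM in int 3, against 2.24, 2.40 and 2.32 FPKM in int 2 (log2 change 1.21, limma adjusted p = 0.00804), and the ferritin gene Fth1 (0.31, limma adjusted p = 0.0193), Ftl1 and Hp. Hp, haptoglobin, was the least even, at 17.7, 35.1 and 1.68 FPKM in int 3 and at most 0.0434 FPKM in int 2. Int 3-2 was the highest for Hmox1, as for Cd163. Arg2, the mitochondrial arginase, had 2.63, 3.07 and 1.95 FPKM in int 3, against 1.81, 2.64 and 2.64 FPKM in int 2, with overlap (0.07, limma adjusted p = 0.775). Without int 3-1, int 2-1, int 2-2 or int 2-3 Fth1 did not pass (adjusted p up to 0.118), and 2 genes of the list then rose. Without int 3-3, 6 rose and 1 fell.

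Among close relatives of the members, Mrc2, a collagen receptor related to Mrc1 and made by fibroblasts, rose by 0.72 (limma adjusted p = 0.0208), and Adgre5, a leukocyte adhesion receptor related to Adgre1, fell by 0.29 (0.0205). Both calls were lost without int 3-1 or any 1 int 2 library (adjusted p up to 0.0947 and 0.0973). Kit, a receptor kinase related to Csf1r, had 8.92, 13.3 and 5.33 FPKM in int 3, against 10.1, 10.3 and 10.3 FPKM in int 2 (log2 change -0.22, limma adjusted p = 0.615). Flt3, another of that family and a receptor of dendritic cells, was too low to test, at 0.273, 0.118 and 0.472 FPKM in int 3 and 0.712, 0.909 and 0.724 FPKM in int 2. Chil1, a chitinase-like relative of Chil3, was also below the filter, at 1.39, 3.54 and 0.898 FPKM in int 3 and 0.568, 0.532 and 0.721 FPKM in int 2. Adgre4, Chit1, Chia1 and Cd5l were at most 0.332 FPKM in every library.

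**Figure D5:**
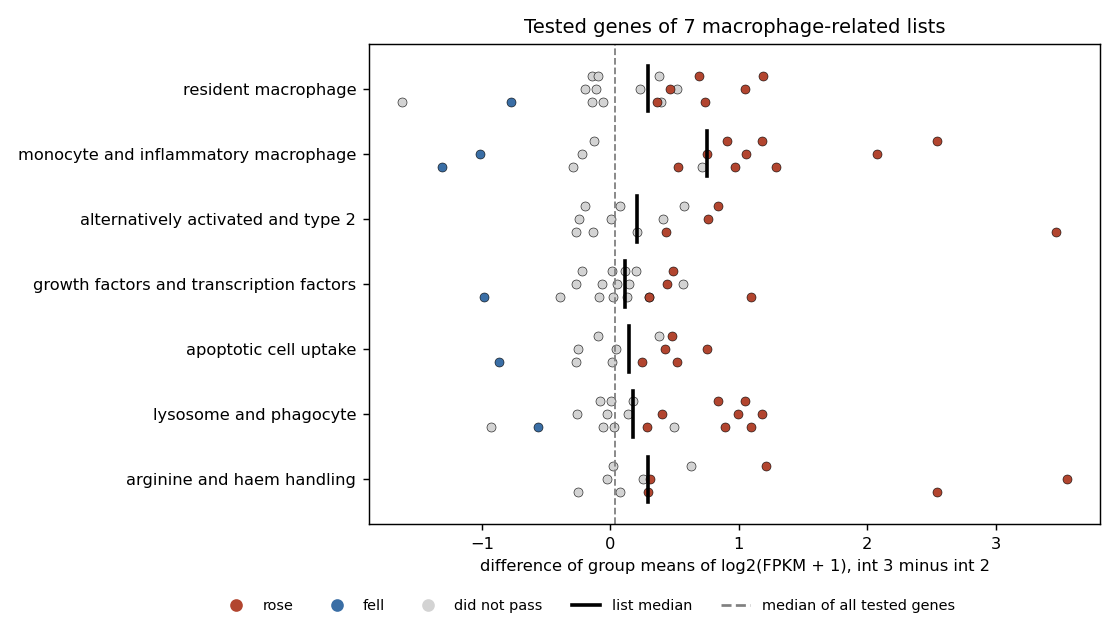
Difference int 3 minus int 2 on the log2(FPKM + 1) scale for the tested genes of the 7 lists, red where a gene rose, blue where it fell and grey where it did not pass, with the list median as a black bar and the median of all tested genes as a dashed line. The monocyte and inflammatory list has its median at 0.76 and the growth factor list at 0.12, against 0.03 for all tested genes.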

How the data were processed

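Per the labels' protocols, RNA of 6 large intestine libraries was extracted with TRIzol and prepared with the Universal V10 kit of VAHTS, and GRCm39 is the genome build per the submitters' processing notes. The aligner, counter and annotation are not given in the sources used here. The authors deposited 1 table of FPKM values per gene, from which whole fragments were recovered for 99.96% of tested genes (12520 of 12525, relative tolerance 5e-08), giving the depths. Genes that reached FPKM 1 in 3 or more libraries entered limma 3.58.1 under R 4.3.3 (two-sided, eBayes with a mean trend) on log2(FPKM + 1), with a pseudocount of 1 and Benjamini-Hochberg adjustment. The fit was run on simulated data, and was required only to recover most large changes where both groups had equal spread. That requirement does not cover the unequal spread of these groups. Alternatives were a pseudocount of 0.1, no filter, a mean FPKM of 5, TPM, median-of-ratios scaling, group weights, voom on whole fragments, a replicate block and each library left out. Named genes are the members, their close relatives, the growth factors and cytokines, for each list the 3 genes with the smallest p in each direction, and the 3 nearest patterns per tested member. C1qb, Ftl1, Hp and Mgl2, the genes that passed the filter through 1 group only, the cell type markers and the promoter motifs were chosen after their values were seen. Members and lists were chosen with earlier results of these data known. Intervals on fragments cover counting error only. A gene that the rule names is not reported here.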

Additional observations from a re-analysis of the deposited data

How the results depend on the processing

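Over the alternatives no called member, and 0 of 44 other called genes named by rule, changed direction. The genes named after their values were seen were not part of that count, and Arg1 had a value only without a filter. The count of 1921 changed genes was 889 with the replicate block and ranged over 615 to 4913 when 1 library was left out: leaving out int 3-1 gave 642, int 2-1 gave 635, int 2-2 gave 615, int 2-3 gave 637 and int 3-3 gave 4913. The count of 5 changed members was 3 (of 4 tested) at a mean FPKM of 5 or more, 3 with the replicate block and 3 to 6 with 1 library left out, and that of 46 pathway list genes was 29 (of 62 tested) at a mean FPKM of 5 or more and 29 to 66 with 1 library left out. Cd68 and Retnla passed in each alternative that could test them. Chil3 did too, but it entered the test only through int 3, so this is no sign of stability. Adgre1 and Lyz2 did not pass with the replicate block (limma adjusted p = 0.0781 and 0.083). The same-numbered libraries did not deviate together (correlations of -0.0147, 0.0041 and -0.0215). This does not exclude that they share more than a number, which the labels do not state. Of the 44 genes, 15 lost the call in at least 1 leave-one-out fit and 29 kept it. The median log2 change of all genes was 0.10 on the TPM scale and 0.03 with FPKM. The cause of these shifts was not tested. At 1 fragment per int 2 library, depth limits the size of the Chil3 change.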

Other observations

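Other cell type lists differed between the groups as well. All 8 tested B cell markers fell in int 3, where 6.70% of all tested genes fell. Fcer2a, 1 of the 8, passed the filter only through int 2 and so had to be lower. The cell type markers were chosen after their values were seen, so this count is no support in itself. Cd79a, a chain of the B cell receptor, had 13.2, 2.20 and 20.8 FPKM in libraries int 3-1, int 3-2 and int 3-3, against 66.7, 67.7 and 69.4 FPKM in int 2-1, int 2-2 and int 2-3. Without int 3-1 the count was 4, and without any 1 int 2 library it was 3. Of 6 tested T cell markers 3 fell (Cd2, Cd3e and Lck), and the count was 5 without int 3-3 and 2 without int 3-1 or any 1 int 2 library.

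The summed FPKM of dendritic cell markers was 4.42 to 8.57 in int 3 and 10.6 to 11.8 in int 2, and that of smooth muscle markers was 3262 to 3828 in int 3 and 4052 to 4066 in int 2. Of 4 tested dendritic cell markers only Ccr7 fell, with means of 1.25 FPKM in int 3 and 4.27 FPKM in int 2. The means of Batf3 and Zbtb46 were higher in int 3, and those of the other listed markers were lower. Fibroblast markers summed to 297 to 369 FPKM in int 3 and 273 to 275 FPKM in int 2, and epithelial markers to 2986 to 3144 FPKM in int 3 and 2873 to 2904 FPKM in int 2. Of 8 tested epithelial markers 0 rose and 0 fell. Muc2 differed most in its mean (281 FPKM in int 3 and 94.6 FPKM in int 2), while the means of Epcam, Cdh1 and Lgr5 were lower in int 3. The mesothelial sum was 1289 to 1731 FPKM in int 3 and 1419 to 1424 FPKM in int 2, nearly all of it from Krt19, a keratin that epithelium also makes. Of the other mesothelial markers, Upk3b had 3.27, 3.73 and 3.71 FPKM in libraries int 3-1, int 3-2 and int 3-3, against 0.301, 0.242 and 0.144 FPKM in int 2-1, int 2-2 and int 2-3. Msln averaged 2.61 FPKM in int 3 and 0.822 FPKM in int 2, Wt1 0.657 FPKM in int 3 and 0.0189 FPKM in int 2, and Lrrn4 0.702 FPKM in int 3 and 0.0235 FPKM in int 2. Upk3b and Msln rose, 2 of 3 tested, and 1 rose without int 3-1 or any 1 int 2 library. Upk3b passed the filter only through int 3 and so had to differ.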
